A study of Mus musculus with 24 samples.

Results

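Spp1, Gpnmb, Lpl, Trem2, Tyrobp, Cd68, Cst7 and Itgax are 8 genes tied to a state that brain macrophages enter in disease. They were followed here through cultures of mouse oligodendrocytes kept with or without ethanol. They are 8 of the 55359 genes in the count table and were chosen by name, with earlier results of these data known, among them how far the experiments lie apart. The p-values below come from fits over all genes and describe these wells. They are no independent support for the choice of the genes, and the difference between the experiments is given without a test.

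The cells came from the cortex of C57BL/6J pups at postnatal days 5 to 7. They were sorted on magnetic beads for O4, a surface antigen of immature oligodendrocytes, and differentiated for 3 days with the thyroid hormone triiodothyronine before 3 days of exposure. In experiment 1 (batch 1), 6 wells received 30 mM ethanol and 6 control wells received 0 mM. In experiment 2 (batch 2), 6 wells received 10 mM ethanol and 6 control wells 0 mM. Control plates stood in an incubator of their own, so the effects of ethanol and of the incubator cannot be told apart, and neither can dose and experiment. All groups share strain, sort and medium, and the labels call the wells biological replicates without saying that they came from separate pups or isolations. The p-values therefore measure the spread between wells.

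RNA was read by 3′ tag sequencing, in which each transcript is counted near its 3′ end. Levels are given as CPM, a gene's count scaled to a common total count in every well. The totals ran from 1184609 to 1817028, so that 3 counts, taken as the floor, stand for 1.65 to 2.53 CPM, a limit that covers counting error only. The labelled cell type was present: 12 genes of maturing oligodendrocytes summed to between 7260 and 15984 CPM in the 24 wells. RNA of macrophages was present as well. A list of 18 microglia identity genes summed to 260 to 388 CPM in the controls of experiment 1 and to 2503 to 2889 CPM in those of experiment 2. None of the 18 was at 0 in all wells of a group. P2ry12, the purinergic receptor of resting microglia, is named here after its values were seen. Its mean in the first control group, 1.28 ± 0.789 CPM (SD, n = 6), lay under the floor, with 1 well at 0. In the second it averaged 3.67 ± 0.645 CPM (SD, n = 6). In RNA from whole wells, fewer cells of a type and less RNA per cell cannot be told apart.

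Disease-associated microglia are a state that microglia, the resident macrophages of the brain, enter around amyloid plaques, dying cells and damaged myelin. TREM2 is a surface receptor for lipids and lipoproteins that signals through the adaptor TYROBP, also called DAP12, and drives the later step of this state. Microglia with a similar programme gather in the developing white matter of newborn mice. The other genes belong to its output. Spp1 encodes osteopontin, a secreted phosphoprotein that binds integrins and CD44. Gpnmb encodes a transmembrane glycoprotein of stressed lysosomes and the cell surface, and Cd68 a heavily glycosylated lysosomal membrane protein. Lpl encodes lipoprotein lipase, Cst7 cystatin F, which inhibits lysosomal cysteine proteases, and Itgax the integrin chain CD11c.

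At 30 mM ethanol, Spp1 and Gpnmb fell, while the receptor Trem2 and its adaptor Tyrobp did not pass the test. Osteopontin RNA dropped to 0.520 times its control level and Gpnmb RNA to 0.597 times. Lpl, Trem2, Tyrobp and Cd68 overlapped between ethanol and control wells, and Cst7 and Itgax were too scarce to test. At 10 mM none of the 6 tested genes passed. Per count of 18 microglia identity genes, Spp1 and Gpnmb lay lower with ethanol in both experiments without overlap of wells. Tyrobp did so at 10 mM only. At 10 mM the amounts were small, and for Spp1 the wells overlapped when only C1q counts were the base.

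Spp1 stood at 159, 197 and 217 CPM (lowest, median and highest of 6 wells) in the controls of experiment 1 and at 77.1, 106 and 118 CPM with 30 mM ethanol. Every ethanol well lay under every control well. The group means were 195 ± 20.7 CPM and 100.3 ± 15.3 CPM (SD, n = 6 each). The log2 fold change was -0.94 (SE 0.087, 95% confidence interval -1.12 to -0.77, edgeR adjusted p = 7.59e-11). Gpnmb stood at 187, 219 and 249 CPM in the same controls and at 106, 131 and 155 CPM with 30 mM ethanol, again without overlap. Its means were 220.4 ± 25.1 CPM and 132 ± 16.7 CPM (SD, n = 6 each), and its log2 fold change was -0.74 (SE 0.0829, 95% confidence interval -0.91 to -0.58, edgeR adjusted p = 9.31e-09). So 2 of the 6 tested genes changed and both were lower. Over all 13235 genes tested in this comparison, 9.67% changed, 6.65% fell and 4.98% had ethanol and control wells that did not overlap. The median log2 fold change was -0.30 over the 6 genes and 0.02 over all genes.

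**Figure D1:**
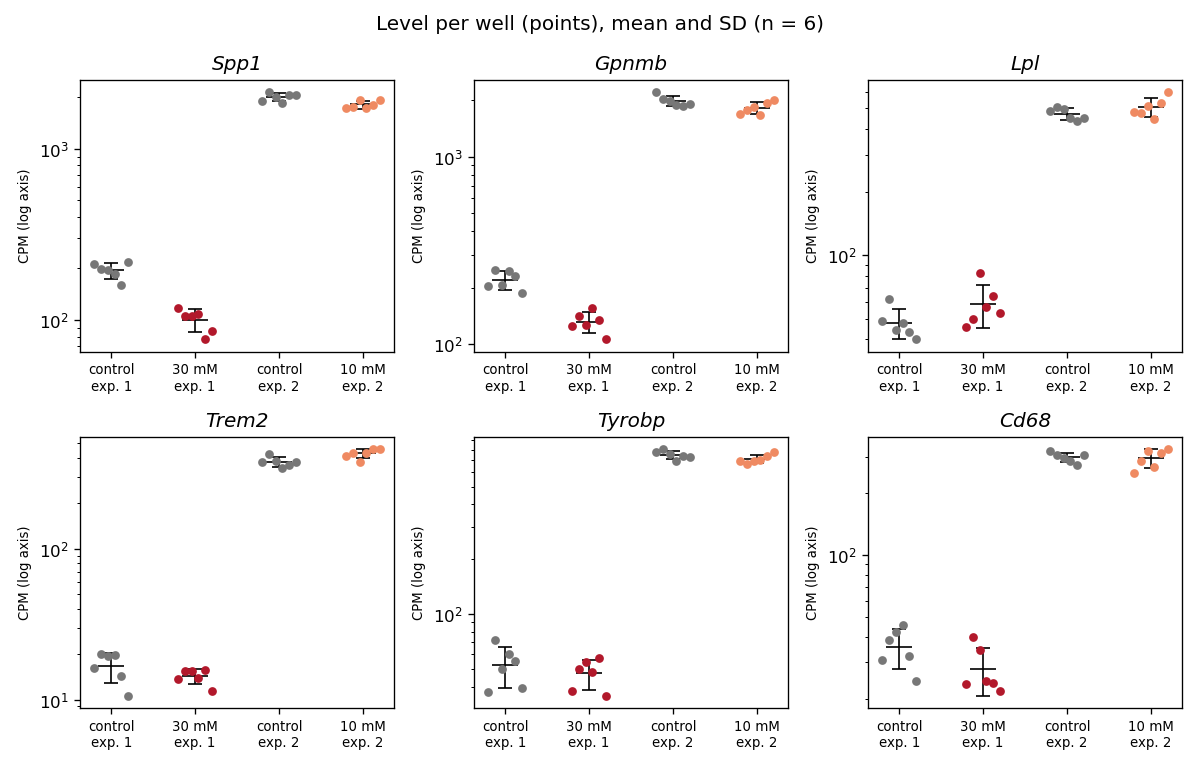
Level of the 6 tested genes in each of the 24 wells, in CPM on a log axis, by group; points are wells and bars the mean and SD of 6 wells. For Spp1 and Gpnmb the 30 mM wells lie under all controls of their experiment, and every gene stands far higher in experiment 2 than in experiment 1.

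The DNA just upstream of 3 of these genes is shown because Spp1 and Gpnmb both fell at 30 mM, and that of Trem2, which did not pass, is set beside them. RefSeq promoter windows were at hand for 6 of the 8 genes, with more than 1 start site for Spp1, and the 250 bases before each start are used here. On GRCm38.p6, plus strand, they are chr5:104434861-104435110 for the first Spp1 start, chr6:49036268-49036517 for Gpnmb and chr17:48346151-48346400 for Trem2. Capitals mark AGGAAGT, a word bound by PU.1, the ETS factor that macrophages depend on.
Spp1: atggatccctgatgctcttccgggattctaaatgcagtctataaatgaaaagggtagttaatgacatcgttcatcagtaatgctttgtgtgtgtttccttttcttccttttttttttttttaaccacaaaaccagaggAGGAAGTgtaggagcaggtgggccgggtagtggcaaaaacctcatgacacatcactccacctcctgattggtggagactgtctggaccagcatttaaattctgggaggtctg
Gpnmb: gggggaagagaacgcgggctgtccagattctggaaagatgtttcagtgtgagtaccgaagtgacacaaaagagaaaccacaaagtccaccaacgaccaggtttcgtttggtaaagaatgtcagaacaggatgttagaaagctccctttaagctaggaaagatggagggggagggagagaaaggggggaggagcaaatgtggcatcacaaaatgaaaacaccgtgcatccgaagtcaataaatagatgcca
Trem2: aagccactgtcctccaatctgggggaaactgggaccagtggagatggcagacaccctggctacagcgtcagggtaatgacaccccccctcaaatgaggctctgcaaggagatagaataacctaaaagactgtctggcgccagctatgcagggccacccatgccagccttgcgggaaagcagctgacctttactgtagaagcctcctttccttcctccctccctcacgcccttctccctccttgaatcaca

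Across the 7 windows searched on both strands, AGGAAGT occurred 112 bases before the first Spp1 start and 63 bases before the Cst7 start, and it is in 7.69% of all 32851 windows of this length. The AP-1 word TGAGTCA occurred in the Cd68 window at 149 and 24 bases before the start and in the Itgax window at 56 bases. It is in 4.46% of all windows. CACGTG and CATGTG, words bound by the MiT/TFE factors that govern lysosomal genes, were in none of the 7 windows and are in 6.02% and 12.3% of all. None of these letters was found in the Gpnmb or Trem2 windows. The matches describe letters in these windows.

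Trem2, the receptor, was scarce in experiment 1, with 13 to 36 counts in each control well and 14 to 25 in each 30 mM well. It stood at 10.6, 17.7 and 19.9 CPM in the controls and at 11.3, 14.8 and 15.6 CPM with ethanol. The wells overlapped, and the log2 fold change of -0.24 (95% confidence interval -0.64 to 0.15, SE 0.195, edgeR adjusted p = 0.484) has an interval that does not reach the estimate for Spp1. It does meet the Gpnmb interval of -0.91 to -0.58. Whether Trem2 changed differently from Spp1 or Gpnmb was not tested. Tyrobp, its adaptor, stood at 37.5, 52.5 and 72.4 CPM in the controls and at 35.6, 48.8 and 57.4 CPM with 30 mM ethanol. The wells overlapped, with 2 controls above every ethanol well and 1 ethanol well below every control, and the log2 fold change was -0.17 (SE 0.133, 95% confidence interval -0.44 to 0.10, edgeR adjusted p = 0.465).

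Cd68 stood at 24.4, 35.5 and 45.7 CPM in the controls of experiment 1 and at 21.8, 24.05 and 39.7 CPM with 30 mM ethanol. In ethanol, 4 of 6 wells lay under every control, and replicates 2 and 3 lay among the controls. The log2 fold change was -0.36 (SE 0.157, 95% confidence interval -0.68 to -0.05, edgeR adjusted p = 0.145). Without replicate 2 it was -0.52 and passed (edgeR adjusted p = 0.0277). Lpl, the lipase, leaned the other way. Its controls stood at 39.9, 45.9 and 61.8 CPM and its 30 mM wells at 45.6, 55.0 and 82.7 CPM, overlapping, and the log2 fold change was 0.28 (SE 0.122, 95% confidence interval 0.03 to 0.52, edgeR adjusted p = 0.154).

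Cst7 and Itgax did not pass the low-count filter in either experiment. Cst7 had 2 counts over the 6 controls and 3 over the 6 ethanol wells of experiment 1, all 3 in replicate 1. In experiment 2 it had 10 counts over the controls and 16 at 10 mM. Itgax had 3 counts over the controls and 1 over the 30 mM wells, against 33 over the controls and 36 over the 10 mM wells of experiment 2. For both genes the ethanol effect was not detectable at this depth.

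At 10 mM, Spp1 stood at 1726, 1778 and 1941 CPM against 1848, 2024 and 2138 CPM in the controls of experiment 2. The wells overlapped in part, and the log2 fold change was -0.14 (SE 0.0503, 95% confidence interval -0.24 to -0.04, edgeR adjusted p = 0.265). Gpnmb stood at 1660, 1808 and 1997 CPM against 1871, 1942 and 2201 CPM, and its log2 fold change was -0.12 (SE 0.0525, 95% confidence interval -0.22 to -0.01, edgeR adjusted p = 0.425). Trem2 lay the other way, at 375, 431 and 458 CPM against 343, 374 and 422 CPM, and its log2 fold change was 0.19 (SE 0.0579, 95% confidence interval 0.07 to 0.31, edgeR adjusted p = 0.124). Without ethanol replicate 3 its value was 0.23 (edgeR adjusted p = 0.0411), and without control replicate 2 it was also 0.23 (edgeR adjusted p = 0.0427), so either well decides whether Trem2 passes.

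Tyrobp stood at 670.3, 697 and 779 CPM with 10 mM ethanol against 692, 748 and 807 CPM in the controls, and its log2 fold change was -0.07 (SE 0.0527, edgeR adjusted p = 0.703). Cd68 stood at 250.1, 299.4 and 328 CPM against 274, 299.6 and 319 CPM, and its log2 fold change was -0.01 (SE 0.0622, edgeR adjusted p = 0.978). Lpl stood at 445, 497 and 595 CPM against 433, 468 and 507 CPM, and its log2 fold change was 0.11 (SE 0.0593, edgeR adjusted p = 0.513). All 6 genes overlapped between 10 mM and control wells. By edgeR 0 of 6 passed, and 3 had an unadjusted p under 0.05, namely Spp1 (0.00829), Gpnmb (0.028) and Trem2 (0.00156). DESeq2 and limma voom also called 0 of the 6. Over all 13538 genes tested, 0.657% changed and 0.894% had wells that did not overlap.

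The change at 30 mM differed from that at 10 mM for Spp1 and Gpnmb. Tested as an interaction over the 24 wells, the difference was -0.82 on the log2 scale for Spp1 (SE 0.103, 95% confidence interval -1.02 to -0.61, edgeR adjusted p = 3.96e-08) and -0.64 for Gpnmb (SE 0.104, 95% confidence interval -0.85 to -0.43, edgeR adjusted p = 2.57e-05). Of all 14655 genes in that test, 3.28% passed. For Trem2 the difference was -0.45 (SE 0.188, edgeR adjusted p = 0.184), and Lpl, Tyrobp and Cd68 did not pass either (edgeR adjusted p from 0.222 to 0.717). Without the 30 mM replicate 2, the difference for Cd68 was -0.55 and passed (edgeR adjusted p = 0.0397).

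**Figure D2:**
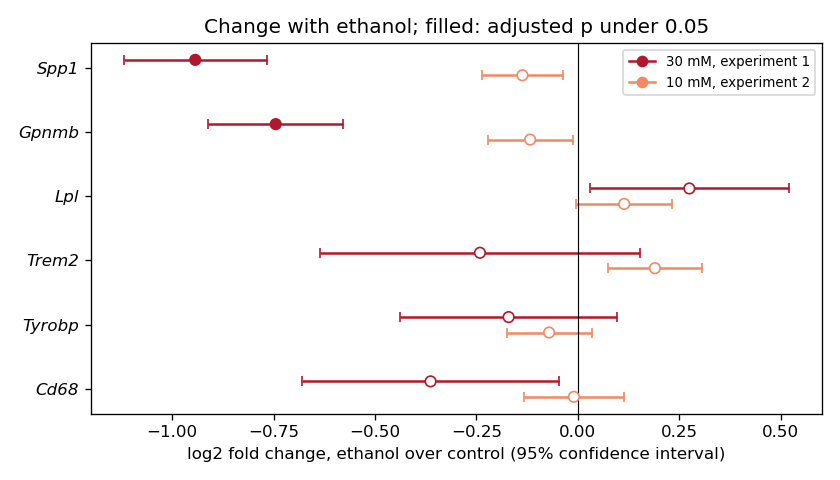
Log2 fold change of each tested gene with ethanol over its own controls, with the 95% confidence interval, at 30 mM (experiment 1) and 10 mM (experiment 2); filled points have an adjusted p under 0.05. Only Spp1 and Gpnmb at 30 mM are filled, at -0.94 and -0.74, and their intervals do not meet those at 10 mM.

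The experiments differed far more than the doses. Control wells of experiment 1 held less RNA of 7 of the 8 genes than any control well of experiment 2, the exception being the scarce Cst7, whose wells overlapped. The ratio of the control means, experiment 2 over experiment 1, was 10.3 for Spp1, 8.98 for Gpnmb, 9.86 for Lpl, 14.3 for Tyrobp, 8.34 for Cd68 and 22.6 for Trem2. On the log2 scale, experiment 1 minus experiment 2, Trem2 was lowest at -4.42 (SE 0.0953) and Tyrobp next at -3.78 (SE 0.0794). Lpl at -3.25 (SE 0.0773), Spp1 at -3.32 (SE 0.0622), Gpnmb at -3.12 (SE 0.0636) and Cd68 at -2.99 (SE 0.0867) lay close together. For background, 18.9% of the 13479 genes tested did not overlap between the control groups and 3.77% were at least 2-fold lower in experiment 1, against 6 of the 6 tested members. These differences were known when the genes were chosen, so nothing is read from the count. For Spp1 and Gpnmb the order of the groups was control of experiment 2, 10 mM, control of experiment 1, 30 mM, with overlap only between the first pair. For Trem2 the 10 mM wells stood highest, and each experiment's ethanol and control wells overlapped.

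The microglia identity genes were lower in experiment 1 alongside: 14 of the 14 tested had a negative value, from -4.36 to -0.04, with a median of -2.94. Of these, 13 were at least 2-fold lower. Markers of border macrophages and monocytes were lower too, in 5 of 5 tested, with a median of -2.02 and 4 at least 2-fold lower. The difference was thus not particular to the microglia list. The 12 oligodendrocyte genes had a median of -0.02 and all genes one of -0.01. Cultures and batch cannot be told apart here. The wider disease-associated list of 24 genes, chosen with earlier results known, had 20 of 24 lower in experiment 1 and 4 higher, with a median of -1.08. The values ran from -3.75 to 0.79. The lowest was the pattern receptor Clec7a, named after its value was seen. Of the genes around TREM2 signalling, 10 of 11 tested were lower, with a median of -1.62. Oligodendrocytes and astrocytes express many of the genes on these wider lists.

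The levels were then set against the 18 identity genes of each well, as counts per 100 of their summed counts. This base is not a pure measure of macrophage RNA. Which cells made the RNA of Spp1, Gpnmb and the other members was not tested, and the ratio does not show it. Sall1, named here after its values were seen, averaged 26.2 and 27.9 CPM in the controls of experiments 1 and 2, unlike the sum. The sum of the identity genes overlapped between ethanol and control wells in both experiments. It was 324 ± 58.4 CPM in the controls and 337 ± 47.7 CPM with 30 mM ethanol, and 2718 ± 130 CPM in the controls and 2829 ± 144 CPM with 10 mM (SD, n = 6 each). At 30 mM, 1 of the 9 tested identity genes rose and none fell, with a median log2 fold change of 0.06. At 10 mM, 2 of 15 rose and none fell. The gene that rose at both doses was Cx3cr1, the fractalkine receptor of microglia, by 1.07 (SE 0.292, edgeR adjusted p = 0.0124) and by 0.29 (SE 0.0736, edgeR adjusted p = 0.0357). At 30 mM the Cx3cr1 wells were low and overlapped, with 2.68 to 7.70 CPM in the controls and 5.66 to 16.4 CPM with ethanol. At 10 mM they did not overlap, with 94.7 to 130.1 CPM in the controls and 132 to 154 CPM with ethanol. Fcrls, a receptor gene typical of microglia, rose at 10 mM by 0.35 (SE 0.092, edgeR adjusted p = 0.0417).

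Spp1 per 100 identity counts ran from 51.0 to 83.7, with a median of 53.0, in the controls of experiment 1 and from 24.2 to 38.6, with a median of 30.3, with 30 mM ethanol. In experiment 2 it ran from 68.8 to 78.0 in the controls and from 60.5 to 68.1 with 10 mM ethanol. The groups did not overlap at either dose, though the nearest wells at 10 mM all but touch. The ratio of means was 0.484 at 30 mM and 0.871 at 10 mM. On this scale 1.33% of the 13235 genes tested at 30 mM did not overlap (1.25% with ethanol lower), and 0.945% of the 13538 at 10 mM (0.813% with ethanol lower). Gpnmb per 100 identity counts ran from 54.1 to 78.0 in the controls and from 30.8 to 43.6 with 30 mM ethanol, and from 69.6 to 79.1 in the controls and from 58.8 to 66.4 with 10 mM ethanol. It did not overlap at either dose, with ratios of means of 0.571 and 0.882.

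Tyrobp per 100 identity counts did not overlap at 10 mM, with 26.5 to 27.9 in the controls and 24.3 to 26.0 with ethanol, but did at 30 mM, with 13.1 to 18.7 and 12.4 to 18.04. Trem2 ran from 13.4 to 14.6 in the controls and from 13.1 to 16.1 with 10 mM ethanol, and from 4.08 to 6.11 and from 3.78 to 4.90 in experiment 1. Lpl and Cd68 overlapped at both doses. On this scale the experiments looked different. Spp1 averaged 62.1 ± 15.5 and 73.8 ± 2.96 in the control groups of experiments 1 and 2, and Cd68 11.0 ± 1.22 and 11.0 ± 0.482, whereas Trem2 averaged 5.12 ± 0.688 and 13.8 ± 0.421 and Tyrobp 16.1 ± 2.30 and 27.6 ± 0.548 (SD, n = 6 each). So the control groups overlapped for Spp1 and Cd68 and lay apart for the receptor and its adaptor. Of all genes tested between the control groups, 98.1% lay apart on this scale, counted in either direction. The base is far lower in experiment 1, which by itself places a gene of unchanged CPM higher there. Trem2 and Tyrobp lay lower there, and the share of all genes that did so was not counted. Nothing is therefore read from that separation.

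**Figure D3:**
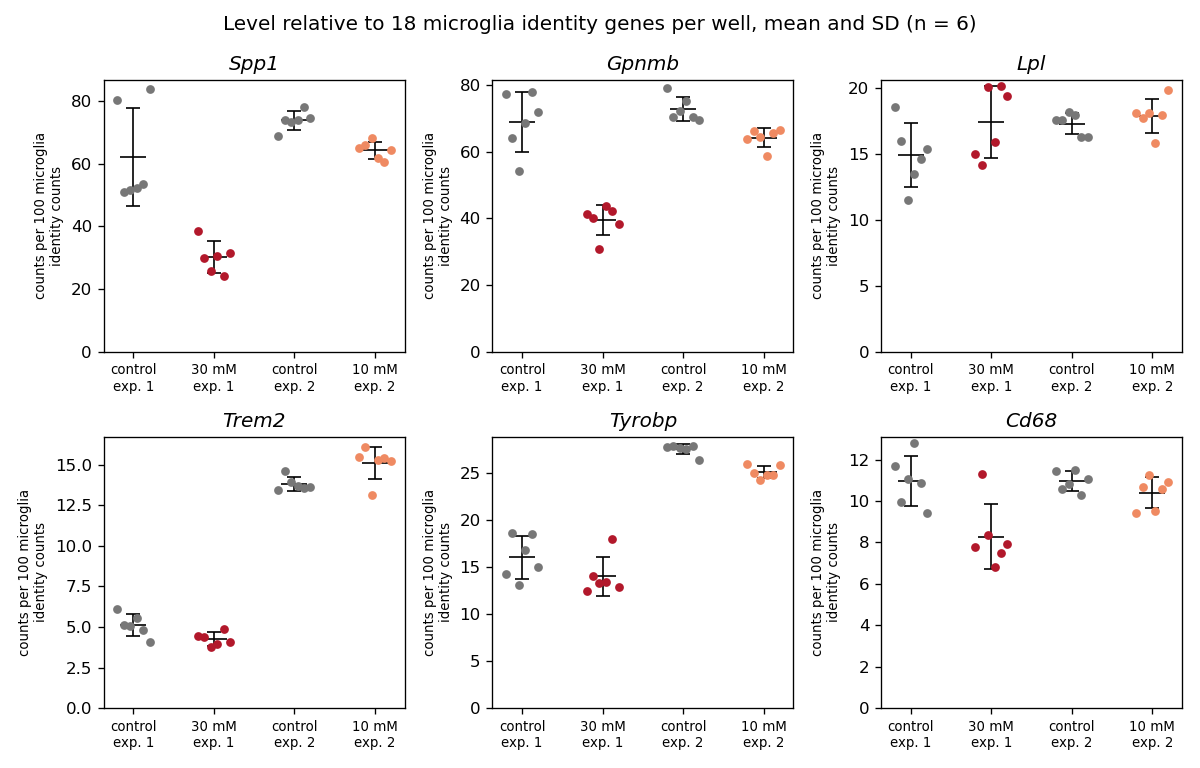
Counts of each of the 6 genes per 100 counts of 18 microglia identity genes in the same well, by group; points are wells and bars the mean and SD of 6 wells. Spp1 and Gpnmb lie lower with ethanol in both experiments without overlap, and Tyrobp does so at 10 mM only. Trem2 and Tyrobp lie lower in experiment 1 than in experiment 2.

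A second base was the 3 chains of complement C1q, which are among the 18 genes. In the controls of experiment 1, C1qa, C1qb and C1qc averaged 53.9, 67.45 and 47.7 CPM, within a mean sum of 324 CPM. In those of experiment 2 they averaged 412, 746 and 488 CPM, within 2718 CPM. The bases therefore share many counts and are not independent. On the C1q base, Spp1 per 100 counts ran from 91.7 to 168 in the controls of experiment 1 and from 44.6 to 73.7 with 30 mM ethanol. At 10 mM the groups then overlapped for Spp1, with 113 to 128 in the controls and 97.2 to 117 with ethanol, so that separation depends on the denominator. Gpnmb kept its separation at both doses, with 104 to 158 against 59.6 to 87.2, and 113 to 130 against 98.1 to 111. Tyrobp again lay apart at 10 mM, with 42.8 to 47.6 in the controls and 39.9 to 42.5 with ethanol, and overlapped at 30 mM. With this base 0.793% of all genes tested did not overlap at 30 mM (0.725% with ethanol lower) and 0.717% at 10 mM (0.635% with ethanol lower). A fit with the identity sum as a covariate, added after the data had been seen, gave -0.94 for Spp1 (edgeR adjusted p = 2.91e-10) and -0.77 for Gpnmb (edgeR adjusted p = 2.31e-09) at 30 mM. At 10 mM it gave -0.18 for Spp1 (SE 0.0486, edgeR adjusted p = 0.0319) and -0.18 for Gpnmb (SE 0.0496, edgeR adjusted p = 0.0428), so that 2 of the 6 genes passed there against 0 without the covariate. Over all genes that fit called 9.67% at 30 mM and 0.968% at 10 mM. At 10 mM it called 131 genes against 89 without the covariate, and only 64 were called by both fits. At 30 mM each fit called 1280, and 1216 were shared.

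Other cell types moved in the same wells. At 30 mM, markers of smooth muscle, pericytes and fibroblasts fell in 5 of 8 genes, their sum going from 708 to 954 CPM in the controls to 333 to 418 CPM without overlap. Among them were Tagln at -1.68 and Acta2 at -1.60, both smooth muscle contractile genes, and Col1a2, a collagen chain, at -0.97 on the log2 scale. Of the 9 border macrophage and monocyte markers, 4 were tested and 1 fell, Pf4, a platelet and macrophage chemokine, by 0.91 on the log2 scale (edgeR adjusted p = 8.48e-06). The 9 summed to between 82.3 and 140 CPM in the controls and 63.4 and 95.6 CPM with ethanol. Of the 9, 1 was at 0 in every ethanol well and also in 5 of the 6 control wells. Oligodendrocyte genes rose in 8 of 12 and astrocyte genes in 5 of 8. Among the 30 mM wells, replicates 3 to 6 had chi-square per degree of freedom of 1.16 to 1.42 between them. Replicate 2 had 1.75 to 2.12 against them. Replicate 1 stood furthest apart, with 2.07 to 2.88 against the other wells. It also had the highest oligodendrocyte sum, 15984 CPM against a group median of 9999 CPM. Without it, 8 of 12 oligodendrocyte genes rose with a median log2 fold change of 0.26 against 0.43, astrocyte genes rose in 6 of 8, mural and fibroblast genes fell in 5 of 8, and Spp1 stood at -1.002. The part of these shifts in the fall of Spp1 and Gpnmb was not tested. At 10 mM the mural and fibroblast sum overlapped, at 477 to 630 CPM in the controls and 478 to 544 CPM with ethanol. Even so, 1 of its 7 tested genes fell, the proteoglycan Dcn, by 0.39 on the log2 scale (edgeR adjusted p = 0.0184). Oligodendrocyte genes rose in 3 of 12, the myelin genes Mag, Cnp and Mal, by 0.25 to 0.38. Of the 5 neuronal genes tested, Tubb3, a tubulin, rose by 0.24 (edgeR adjusted p = 0.026) and Stmn2, a stathmin, fell by 0.40 (edgeR adjusted p = 0.0291).

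The other genes of the disease-associated programme went in both directions at 30 mM. Of 24 on the list, 20 were tested, 3 rose and 5 fell, with a median log2 fold change of -0.04 against 0.02 over all genes. Lgals3, the lectin galectin-3, fell from 104 ± 15.6 CPM to 45.8 ± 9.43 CPM (SD, n = 6 each), with a log2 difference of -1.17 (SE 0.111, edgeR adjusted p = 1.61e-10). Axl, a receptor tyrosine kinase that binds GAS6 on dying cells, fell by 0.53 on the log2 scale (edgeR adjusted p = 0.000124). The remaining 3 that fell, named here after their values were seen, were the macrophage lysozyme Lyz2 at -0.40 (edgeR adjusted p = 0.00311), the chemokine Ccl6 at -1.14 (edgeR adjusted p = 0.00734) and the tetraspanin Cd9 at -0.22 (edgeR adjusted p = 0.0232). Among those that rose were the lysosomal protease Ctsb, by 0.26 (edgeR adjusted p = 0.0047), and Fth1, the ferritin heavy chain, by 0.25 (edgeR adjusted p = 0.00194). At 10 mM all 24 were tested and edgeR called 0, with a median of -0.03. In the interaction Lgals3 (-1.05), Ccl6 (-1.12) and Axl (-0.59) were lower at 30 mM and passed, and Ctsb (0.30) and Fth1 (0.29) were among those higher. Galectin-3 and Axl are also made by cells other than macrophages.

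Around the receptor, the list of TREM2 signalling, shedding and partner genes had 6 of 13 tested at 30 mM, and edgeR called 0 of them, with a median of -0.01. Without the 30 mM replicate 1, the sheddase gene Adam17 passed, at 0.41 (edgeR adjusted p = 0.0227 against 0.0705 with all wells). At 10 mM 11 were tested and 0 called, with a median of 0.01. Of the receptors that bind osteopontin, 6 of 9 were tested at 30 mM. Cd44, the hyaluronan receptor, rose by 0.22 (edgeR adjusted p = 0.0271) and Itgb1, the integrin beta-1 chain, fell by 0.26 on the log2 scale (edgeR adjusted p = 0.00776). At 10 mM 7 were tested and 0 were called. The partners of CD11c, the beta-2 integrin chain and its other alpha chains, were too scarce to test at 30 mM, and 2 of the 4 were tested and 0 called at 10 mM.

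For Lpl, a list of 14 genes of lipase maturation, lipid uptake, storage and efflux had 11 tested at 30 mM. Plin2, which coats lipid droplets, fell by 0.48 on the log2 scale (edgeR adjusted p = 0.00699) and the other 10 did not pass. For Cd68, Gpnmb and Cst7, a list of 13 genes of lysosomal proteins, MiT/TFE factors and targets of cystatin F had 12 tested at 30 mM. Grn, which encodes progranulin, fell by 0.30 (edgeR adjusted p = 0.0134) and the other 11 did not pass. Neither list had a gene called at 10 mM, where 12 were tested in each. Plin2 also differed between the doses, by -0.59 (edgeR adjusted p = 0.00672).

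**Figure D4:**
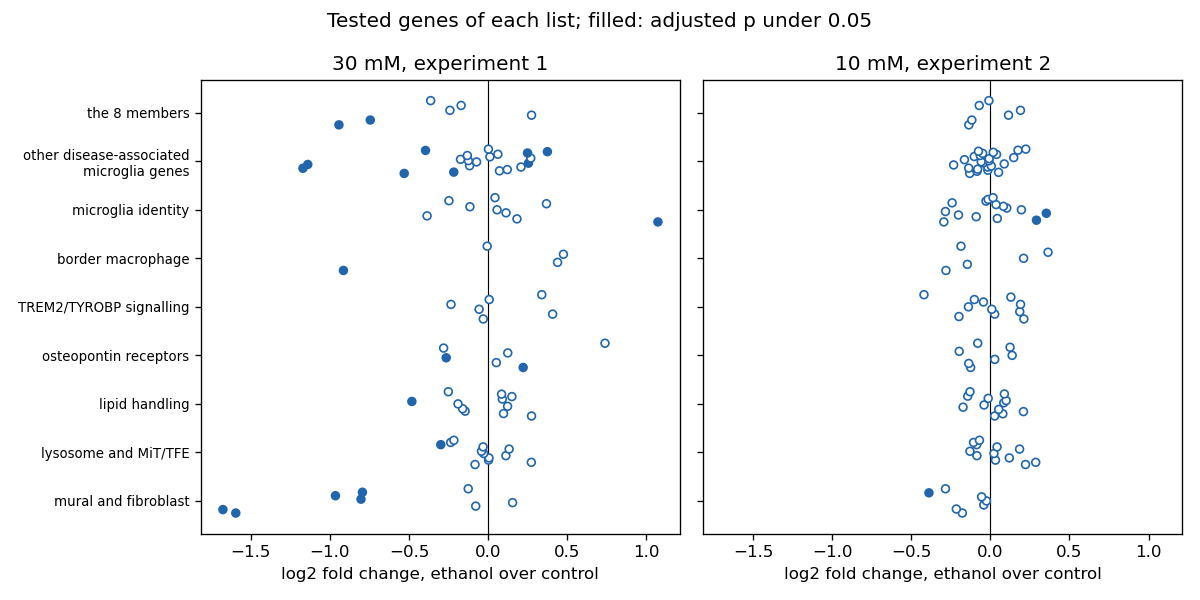
Log2 fold change with ethanol over control of every tested gene on each list, at 30 mM on one panel and 10 mM on the other; filled points have an adjusted p under 0.05. At 30 mM filled points lie on both sides of 0 in the disease-associated list and below 0 in the mural and fibroblast list, and at 10 mM few are filled.

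Across the 24 wells the 6 tested genes ran almost in parallel, with Pearson r of log2 CPM between 0.96 and 0.996 for every pair, a description that the difference between the experiments dominates. The genes most like Spp1 over the 24 wells were Gpnmb (r = 0.994), Mpeg1 (0.993), which encodes the macrophage pore protein perforin-2, and Ctla2a (0.992). For Gpnmb they were Mpeg1 (0.995), Lyz2 (0.995) and Spp1 (0.994). For Trem2 they were C1qc (0.997), Tyrobp (0.996) and C1qb (0.996), and for Tyrobp C1qc, Trem2 and C1qb, each at 0.996. For Lpl they were C1qb (0.993), Fyb (0.992) and C3ar1 (0.992), and for Cd68 Lyz2 (0.995), Mpeg1 (0.994) and C1qc (0.993).

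Once each well was set against its own group's mean, the pairs parted. Over the same 24 wells, deviations of Trem2 and Cd68 had r = 0.759, Gpnmb and Tyrobp 0.740, Trem2 and Tyrobp 0.735, and Gpnmb and Trem2 0.666. Spp1 stood aside, with r of 0.160 to Gpnmb, 0.127 to Trem2, 0.260 to Cd68, -0.00578 to Lpl and -0.174 to Tyrobp. Among the 13499 genes compared, the deviations most like those of Tyrobp were C1qb (0.821), C1qa (0.780) and Fcgr3 (0.775), and those most like Trem2 were Laptm5 (0.859), Lyz2 (0.841) and Ndufa13 (0.835). For Cd68 they were Ctsb (0.828), Ccdc88a (0.819) and Msr1 (0.817), for Gpnmb Lyz2 (0.799), Tmem208 (0.782) and Btbd2 (0.757), and for Lpl Pif1 (0.722), Aif1 (0.714) and Vps41 (0.712). For Spp1 they were Gm13293 (0.782), Snx8 (0.774) and Spryd3 (0.746), none of them on the microglia lists used here. The genes named as most alike are the highest of 13499, and how high chance alone would reach was not tested. All points share their library and depth, and counts of Trem2 and Cd68 in experiment 1 are low enough for counting error to weigh in these values.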

How the data were processed

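The authors deposited whole-number counts per gene for 24 wells, 6 in each of 4 groups set by the labels. Per the submitters' processing notes, cutadapt 1.18, STAR and GRCm39 were used. The counter, annotation release, strand setting and treatment of PCR copies are not given in the sources used here, so counts of overlapping genes are uncertain. Gene symbols were looked up by identifier in a mouse name table (52083 of 55359 rows), and promoter windows came from RefSeq on GRCm38.p6. No gene coordinates of the counting build are given.

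The counts were fitted with edgeR 4.0.16 in R 4.3.3 (quasi-likelihood test, TMM, filterByExpr at a minimum count of 10, Benjamini-Hochberg adjustment over all genes tested, threshold 0.05), each dose with its own controls and the interaction over 24 wells. The code was tested on simulated data. Alternatives used DESeq2 1.42.0, limma 3.58.1, other scaling, no filter, a joint fit, a replicate block, leaving out each well, and a covariate. The covariate and the list counts without the 30 mM replicate 1 were added after the data were seen. Between 60 pairs of wells of the same group, chi-square per degree of freedom ran from 1.07 to 2.88, so no pair was taken as a single library. Members and lists were chosen with earlier results of these data known. The text names the 8 members, up to 3 genes a list with the smallest p past the threshold at each dose or the highest level, and the 3 genes most like each member (Pearson r of log2 CPM, prior count 2, mean of at least 3). One gene under this rule is not reported here.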

Additional observations from a re-analysis of the deposited data

Results flagged for a closer look

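Spp1 and Gpnmb responded differently in the experiments by the interaction test: the 30 mM change minus the 10 mM change was -0.82 on the log2 scale for Spp1 (edgeR adjusted p = 3.96e-08) and -0.64 for Gpnmb (edgeR adjusted p = 2.57e-05). Dose and experiment cannot be told apart.

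Of 56 series of 6 wells examined (the CPM and the ratio to identity counts of the 6 tested genes, the identity sum and the total count, in each group), 5 had a well far from the rest by Dixon's test, where chance gives about 1 in 20, or 2.8. All 5 were levels per 100 microglia identity counts. Gpnmb was low at 58.8 in 10 mM replicate 4. Trem2 was low at 13.1 in 10 mM replicate 3. Trem2 passes at that dose without this well, and also without replicate 2 of the controls. Tyrobp was high at 18.04 in 30 mM replicate 5 and low at 26.5 in replicate 6 of the controls of experiment 2. Cd68 was high at 11.3 in 30 mM replicate 2, the well without which Cd68 passes at 30 mM.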

How the results depend on the processing

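Of 644 recomputed values, 627 were the same by the rule for their kind. A change with ethanol, or its difference between doses, had to keep its direction and its side of the threshold. A count of members had to stay within 1.5 times. A difference between the control groups, which has no threshold, had to keep its sign and move by less than the SD between control wells. The counts of 2 changed members at 30 mM and 2 in the interaction stayed within 1.5 times under every alternative run. Leaving out each well gave -1.002 to -0.87 for Spp1 and -0.79 to -0.69 for Gpnmb at 30 mM, past the threshold in 12 of 12 fits each. At 10 mM the count of 0 became 2 with the microglia marker sum as a covariate, which was chosen after seeing the data, and ran from 0 to 1 when wells were left out in turn. Cd68 at 10 mM, at -0.01, turned to 0.014 without the low-count filter and 0.00025 in the joint fit of 24 wells, and ran from -0.052 to 0.033 as wells were left out; the cause was not tested. Over all genes, the joint fit called 21 at 10 mM against 89. Same-numbered wells correlated between -0.168 and 0.232 in experiment 1 and between -0.0382 and 0.0361 in experiment 2, so the numbers pair nothing; with the replicate block Spp1 at 30 mM was -0.95, Gpnmb was -0.74, and 2, 0 and 2 members passed at 30 mM, at 10 mM and in the interaction. Depth limits Trem2 and Cd68 in experiment 1, and Cst7 and Itgax throughout.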
